A study of Homo sapiens with 40 samples.

Results

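The transcripts of 54 genes of the endoplasmic reticulum (ER) protein entry, folding and disposal machinery were followed in 40 RNA-seq libraries of RKO cells, a human colorectal carcinoma line. The genes were taken as a list of names by their role, drawn up with earlier results of these data known. They comprise 7 genes for targeting of ribosomes to the ER, 9 for the translocation channel and its partners, 5 for signal peptidase, 8 for oligosaccharyltransferase (OST), 15 chaperones and folding enzymes, and 10 for ER-associated degradation (ERAD). All 54 were found among the 19962 genes of the count table, and all 54 were among the 11428 genes that had enough counts to be tested.

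Every cell line in the study carried a doxycycline (Dox)-inducible Cas9 nuclease, GFP, and a pair of guide RNAs expressed together with a blue fluorescent protein, on which cells were sorted. The lines are labelled by their guides as sgIGF2BP2, sgIGF2BP3 and, as the control with guides to the AAVS1 locus, sgAAVS1. IGF2BP2 and IGF2BP3 are related RNA-binding proteins that bind messenger RNAs. Each line was given DMSO as the vehicle or Dox at 250 ng/mL for 72 h to induce the knockout. In separate wells without Dox, sgIGF2BP2 cells received a pool of siRNAs against IGF2BP2 (siIGF2BP2) and sgIGF2BP3 cells a pool against IGF2BP3 (siIGF2BP3) at 75 nM for 48 h, each beside a non-targeting siRNA (siControl) in the same line. All cells were labelled with 4-thiouridine at 250 µM for 2 h before harvest. The labels name no ER stress inducer for any of these groups, although the study is about the unfolded protein response. There were 10 groups with 4 libraries each, each from a well of a 24-well plate, so the p-values measure the spread between wells of 1 line per guide pair, and the labels do not say whether a line was a clone.

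As background, secreted and membrane proteins are recognised by the signal recognition particle (SRP) as their signal peptide leaves the ribosome, and the SRP receptor hands the ribosome to the Sec61 channel. Signal peptidase removes the signal peptide, OST attaches N-linked glycans, chaperones and disulfide isomerases fold the chain, and ERAD extracts misfolded chains for destruction by the proteasome. When unfolded proteins accumulate, the sensors of the unfolded protein response raise transcription of many of these genes.

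IGF2BP2 fell with Dox in sgIGF2BP2 cells from 85.3 ± 1.58 to 33.9 ± 3.50 CPM (CPM, counts scaled to library size; mean ± SD, n = 4) and with siIGF2BP2 from 108 ± 4.10 to 30.2 ± 1.08 CPM. IGF2BP3 fell with Dox in sgIGF2BP3 cells from 180 ± 4.09 to 56.2 ± 3.62 CPM and with siIGF2BP3 from 170 ± 4.78 to 24.8 ± 1.56 CPM. IGF2BP3 also fell with Dox in sgIGF2BP2 cells, from 179 ± 9.22 to 151 ± 4.24 CPM (log2 change of −0.25 with SE 0.04, edgeR adjusted p = 2.93e-06), and IGF2BP2 was higher with siControl than with DMSO in both lines (0.34 and 0.28 on the log2 scale, both called). In the line labelled sgAAVS1, a gene other than those targeted changed as much as a target: SPOP on 17q fell with Dox from 36.7 ± 1.48 to 11.4 ± 1.22 CPM (log2 change of −1.68 with SE 0.08, edgeR adjusted p = 4.86e-28), without overlap and by as much as IGF2BP3 in its own knockout (−1.68). Every value below for sgAAVS1 is for the line so labelled. None of the 54 genes lies on 17q beyond SPOP or on 7p beyond IGF2BP3. Exon bases were shared with another gene of the table by 20 of the 54 members, 18 of them with a gene on the opposite strand, and 9 members have named pseudogenes, so counts could be split or shared between such pairs. Library totals ran from 10018181 to 24822807 counts, with a median of 13468792. Of 10 epithelial markers, 4 stood above 1 CPM in the libraries (KRT8, KRT18, EPCAM and CDX2), KRT20 and CDX1 had no count, and the 10 summed to 205 to 312 CPM. With siIGF2BP2 the keratins moved in opposite directions, KRT8 from 44.9 ± 2.36 to 65.6 ± 7.39 CPM and KRT18 from 170 ± 1.01 to 120 ± 8.85 CPM, neither with overlap, and their part in the results was not tested. Fibroblast, leukocyte and endothelial markers summed to at most 1.1, 0.507 and 0.455 CPM, with COL1A2, DCN, LUM, CD3E and KDR at 0. The third siIGF2BP2 library lay farthest from its group over all genes (root mean square deviation 0.172 on the log2 scale, against a range of 0.122 to 0.168 in the other 39). By the chi-square per gene between replicates, the second sgIGF2BP2 Dox library stood farthest apart, at 11.8 to 16.6 against the other 3 of its group (median 2.27 over all 60 pairs of replicates).

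Several of the chaperone genes carry in their promoters the elements through which the stress sensors act. RefSeq promoter windows (GRCh38.p14, 250 bases before to 50 bases after each start site) were matched for 48 of the 54 genes. Windows were searched on both strands for the ER stress response element (ERSE, CCAAT and CCACG with 9 bases of any kind between them), its short form (ERSE-II, ATTGG and CCACG with 1 base of any kind between them) and the unfolded protein response element (UPRE, TGACGTGG). ERSE stood in the windows of 6 of the 48 genes (12.5%) and of 25 of all 27305 genes (0.0916%), or in 27 of all 35116 windows (0.0769%). ERSE-II stood in 3 of the 48 (6.25%) and in 19 of all genes (0.0696%), or 19 of all windows (0.0541%). UPRE stood in 6 of the 48 (12.5%), namely HYOU1, SEC62, SRP19, SSR3, SSR4 and VCP, and in 253 of all genes (0.927%), or 256 of all windows (0.729%). The UPRE match of HYOU1 overlaps its more distant ERSE-II match. The genes carrying ERSE or ERSE-II are shown because they include the textbook stress-inducible chaperones, whose values are given further on. Each match is printed 5′ to 3′ on the strand where it reads as the motif, with the motif in capitals.
HSPA5: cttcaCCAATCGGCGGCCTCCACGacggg
HSP90B1, distal: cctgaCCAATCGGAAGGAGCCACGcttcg
HSP90B1, proximal: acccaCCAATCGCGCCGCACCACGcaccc
CALR: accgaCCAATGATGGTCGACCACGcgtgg
CANX: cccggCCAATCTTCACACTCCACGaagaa
PDIA6: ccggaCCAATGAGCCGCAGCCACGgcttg
CRELD2: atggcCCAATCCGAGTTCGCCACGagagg
HERPUD1: cggacgccgATTGGGCCACGttgggagag
HYOU1, proximal: cgcgtactcATTGGACCACGtcccaggcc
HYOU1, distal: cggcctgggATTGGACCACGtcacggggc
SDF2L1: agggttttgATTGGTCCACGcttccgagg

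The HSPA5 stretch is chr9:125241386-125241414 on the reverse strand (GRCh38.p14), with the motif 66 to 48 bases before the start site. For HSP90B1 the distal stretch is chr12:103930211-103930239 on the forward strand and the proximal one chr12:103930316-103930344 on the reverse strand. For CALR it is chr19:12938379-12938407 on the reverse strand, for CANX chr5:179698773-179698801 on the forward strand, for PDIA6 chr2:10812848-10812876 on the reverse strand and for CRELD2 chr22:49918549-49918577 on the reverse strand. Among the genes with ERSE-II it is chr16:56932016-56932044 on the forward strand for HERPUD1, chr11:119057265-119057293 on the forward strand and chr11:119057371-119057399 on the forward strand for the proximal and distal matches of HYOU1, and chr22:21642105-21642133 on the reverse strand for SDF2L1. All 11 lie between 225 and 48 bases before the annotated start. These matches are descriptions of letters in a window and were not tested for binding.

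The summed level of the machinery differed little between groups. Over the 54 genes, the group means lay between 13550 and 13860 CPM, or 1.36% to 1.39% of library totals scaled by TMM factors. The sums were lower without overlap with Dox in sgIGF2BP2 cells (13360 to 13780 against 13790 to 13950 CPM). They were also lower without overlap with siIGF2BP3 (13610 to 13670 against 13770 to 13870 CPM). In the other treatment comparisons the sums overlapped. Sums of single steps also stood apart in some comparisons, and none of these differences was tested. Compared per exon length (RPKM, CPM per kilobase of exon), the calcium-binding lectin chaperone CALR was the most abundant at 659 ± 27.7 RPKM (SD over 40 libraries), followed by the Hsp70 chaperone HSPA5 (BiP) at 352 ± 14.2. The OST subunit RPN2 (222 ± 11.1), the Hsp90 chaperone HSP90B1 (207 ± 6.89) and the TRAP complex subunit SSR3 (195 ± 9.93) came next, and the library ranges of RPN2, HSP90B1 and SSR3 meet while CALR and HSPA5 stand apart. At the other end stood the SRP subunit SRP19 at 1.52 ± 0.145 and the translocon helper SEC63 at 1.66 ± 0.161 RPKM. Within signal peptidase, whose catalytic subunit comes as the paralogs SEC11A and SEC11C, the means per length were 17.5 ± 1.06 and 10.2 ± 1.35 RPKM. SEC11C had the greatest ratio between its highest and lowest group means among the 54 (1.648), followed by HERPUD1 (1.391), SRPRA (1.367), SEC61G (1.365) and EDEM1 (1.344).

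**Figure D1:**
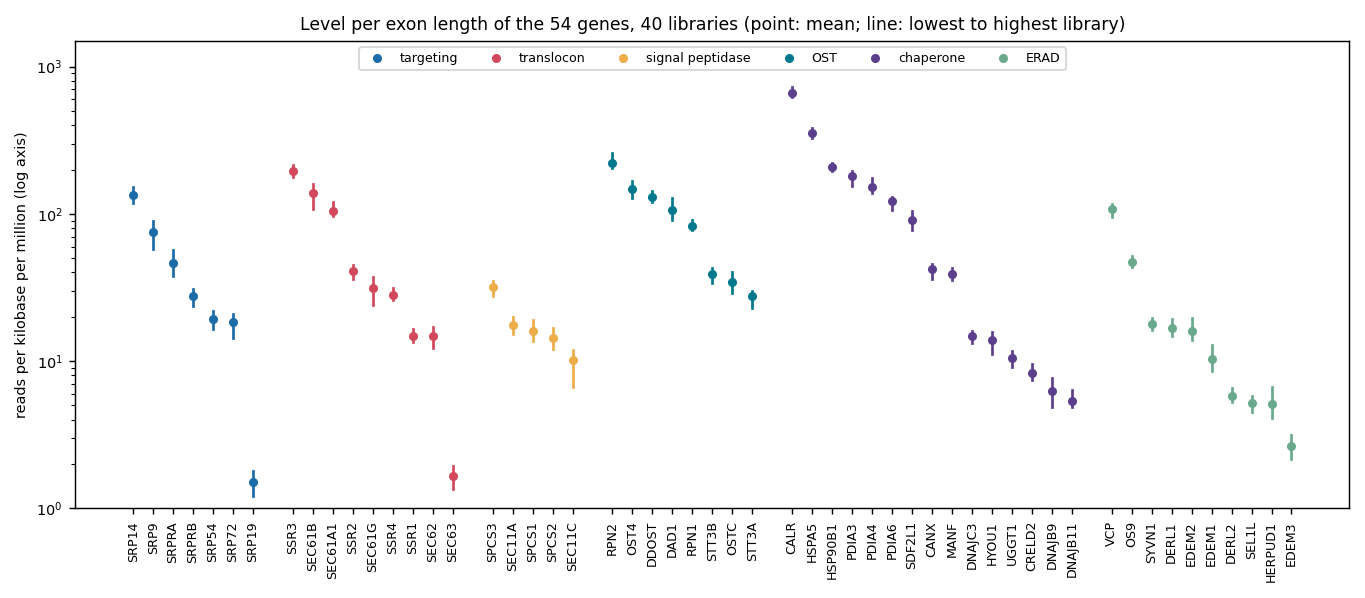
Level of each of the 54 genes in RPKM (log axis), by step of the pathway; points are means of 40 libraries and lines run from the lowest to the highest library. CALR stands highest at 659, and SRP19 and SEC63 lowest at 1.52 and 1.66.

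The siRNA against IGF2BP2 moved the most members. Of the 54 genes, 21 were called (9 higher and 12 lower) in edgeR's quasi-likelihood test with a Benjamini-Hochberg adjusted p under 0.05 over all genes. That is 38.9% of the members, against 36.8% of all genes tested (18.4% in each direction), so the share was near the background. The median log2 fold change was −0.01 over the 54 and 0.01 over all genes, and each step except OST held calls in both directions. Of the 5 signal peptidase genes 1 rose and 2 fell, of the 9 translocon genes 1 rose and 3 fell, of the 15 chaperones 2 rose and 4 fell, of the 10 ERAD genes 2 rose and 2 fell, of the 7 targeting genes 1 rose and 1 fell, and of the 8 OST genes 2 rose.

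The greatest change was a fall of SEC11C, a catalytic subunit of signal peptidase (ENSG00000166562, chr18:59139477-59158836, forward strand in hg38). SEC11C stood at 46.4, 41.0, 44.1 and 42.1 CPM in the siControl libraries and at 32.3, 30.0, 33.8 and 31.2 CPM in the siIGF2BP2 libraries. All 4 siIGF2BP2 libraries lay below all 4 controls, and below the other 36 libraries of the study as well (log2 change of −0.45 with SE 0.06, edgeR adjusted p = 1.33e-09). It was the only member called when the test asked for a change of more than 1.2-fold. Its paralog SEC11A, with overlapping libraries, fell less (log2 change of −0.12 with SE 0.05, edgeR adjusted p = 0.0404), and that call was lost in 5 of 13 other settings, which changed the tool, scaling, filter, block or samples fitted or left out 1 library. The accessory subunit SPCS1 rose from 83.3 ± 4.23 to 96.5 ± 3.91 CPM without overlap (log2 change of 0.21 with SE 0.05, edgeR adjusted p = 0.000368). SPCS1 shares exon bases with GLT8D1 and NEK4 on the opposite strand, and whether reads were counted by strand is not given in the sources used here.

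SRP72, which forms a heterodimer with SRP68 in the particle (ENSG00000174780, chr4:56467336-56503681, forward strand), stood at 119, 122, 119 and 120 CPM with siControl and at 94.8, 92.5, 103 and 99.0 CPM with siIGF2BP2. The groups did not overlap (log2 change of −0.30 with SE 0.04, edgeR adjusted p = 8.61e-09). SRPRA, the SRP receptor subunit that binds SRP, moved the other way, from 213, 217, 216 and 213 CPM to 235, 231, 236 and 232 CPM (log2 change of 0.12 with SE 0.03, edgeR adjusted p = 0.00239). Its groups did not overlap either, and the other 5 targeting genes were not called.

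The subunits of the Sec61 channel also split. SEC61A1 forms the pore, and SEC61B is a small tail-anchored subunit beside it. SEC61A1 rose from 490, 504, 483 and 483 CPM to 531, 543, 569 and 558 CPM, with all treated libraries above all controls (log2 change of 0.17 with SE 0.03, edgeR adjusted p = 7.35e-06). SEC61B fell from 153, 163, 161 and 156 CPM to 128, 131, 151 and 129 CPM, and the third treated library stood nearest the controls (log2 change of −0.23 with SE 0.04, edgeR adjusted p = 1.59e-06). The gamma subunit SEC61G was not called (log2 change of −0.03 with SE 0.07, edgeR adjusted p = 0.760). SSR3, a subunit of the TRAP complex that assists insertion, fell from 929 ± 8.14 to 854 ± 16.4 CPM (log2 change of −0.12 with SE 0.03, edgeR adjusted p = 0.00223), and SEC62, which aids translocation of short chains, fell with overlapping libraries (log2 change of −0.14 with SE 0.05, edgeR adjusted p = 0.0197), a call lost in 3 of 13 other settings.

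Among the folding enzymes, the 3 protein disulfide isomerases that are members did not all move the same way. PDIA6 fell from 527, 523, 514 and 529 CPM to 436, 439, 463 and 436 CPM (log2 change of −0.24 with SE 0.03, edgeR adjusted p = 2.01e-10). PDIA3, the isomerase that works with the lectin chaperones on glycoproteins, fell from 773, 771, 789 and 784 CPM to 673, 658, 701 and 668 CPM (log2 change of −0.21 with SE 0.03, edgeR adjusted p = 1.05e-07). PDIA4 rose from 496, 494, 504 and 513 CPM to 555, 546, 576 and 552 CPM (log2 change of 0.15 with SE 0.03, edgeR adjusted p = 2.27e-05). None of these 3 pairs of groups overlapped. HYOU1, an Hsp70-like exchange factor for HSPA5, fell from 110 ± 4.71 to 96.9 ± 7.33 CPM (log2 change of −0.19 with SE 0.04, edgeR adjusted p = 0.000157). SDF2L1, a partner of ER J-proteins, fell with overlapping libraries (log2 change of −0.16 with SE 0.05, edgeR adjusted p = 0.0129; call lost in 2 of 13), and CALR rose (log2 change of 0.08 with SE 0.03, edgeR adjusted p = 0.0267; call lost in 5 of 13). PDIA6 and PDIA3 share exon bases with ATP6V1C2 and ELL3 on the opposite strand.

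In OST, the called members were both accessory subunits and both higher. RPN2 stood at 630, 628, 628 and 636 CPM with siControl and at 683, 686, 725 and 710 CPM with siIGF2BP2 (log2 change of 0.15 with SE 0.03, edgeR adjusted p = 5.27e-05). DAD1 rose with overlapping libraries (log2 change of 0.12 with SE 0.04, edgeR adjusted p = 0.0272), and its call was lost in 6 of 13 other settings. The catalytic subunits STT3A and STT3B had log2 fold changes of −0.02 (95% interval −0.10 to 0.05) and −0.05 (−0.12 to 0.03).

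In ERAD, EDEM1, EDEM2 and EDEM3 are related proteins that trim mannose from glycans of misfolded chains and so mark them for disposal. EDEM2 rose from 30.1, 30.6, 28.5 and 30.8 CPM to 31.0, 36.0, 37.6 and 36.5 CPM, the lowest treated library lying just above the highest control (log2 change of 0.24 with SE 0.06, edgeR adjusted p = 0.00155). EDEM1 fell from 86.5, 83.1, 87.0 and 82.5 CPM to 74.2, 78.9, 72.4 and 73.1 CPM without overlap (log2 change of −0.19 with SE 0.04, edgeR adjusted p = 0.000611). EDEM3 fell with overlap (log2 change of −0.18 with SE 0.07, edgeR adjusted p = 0.0400; call lost in 7 of 13), and the lectin OS9 rose with overlap (log2 change of 0.09 with SE 0.03, edgeR adjusted p = 0.0342; call lost in 6 of 13). The 4 libraries of each group did not overlap for 16 of the 54 genes (8 in each direction), or 29.6%, against 30.6% of all genes tested. Leaving out 1 library at a time left 15 to 21 members called, and 21 were called without the third siIGF2BP2 library.

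**Figure D2:**
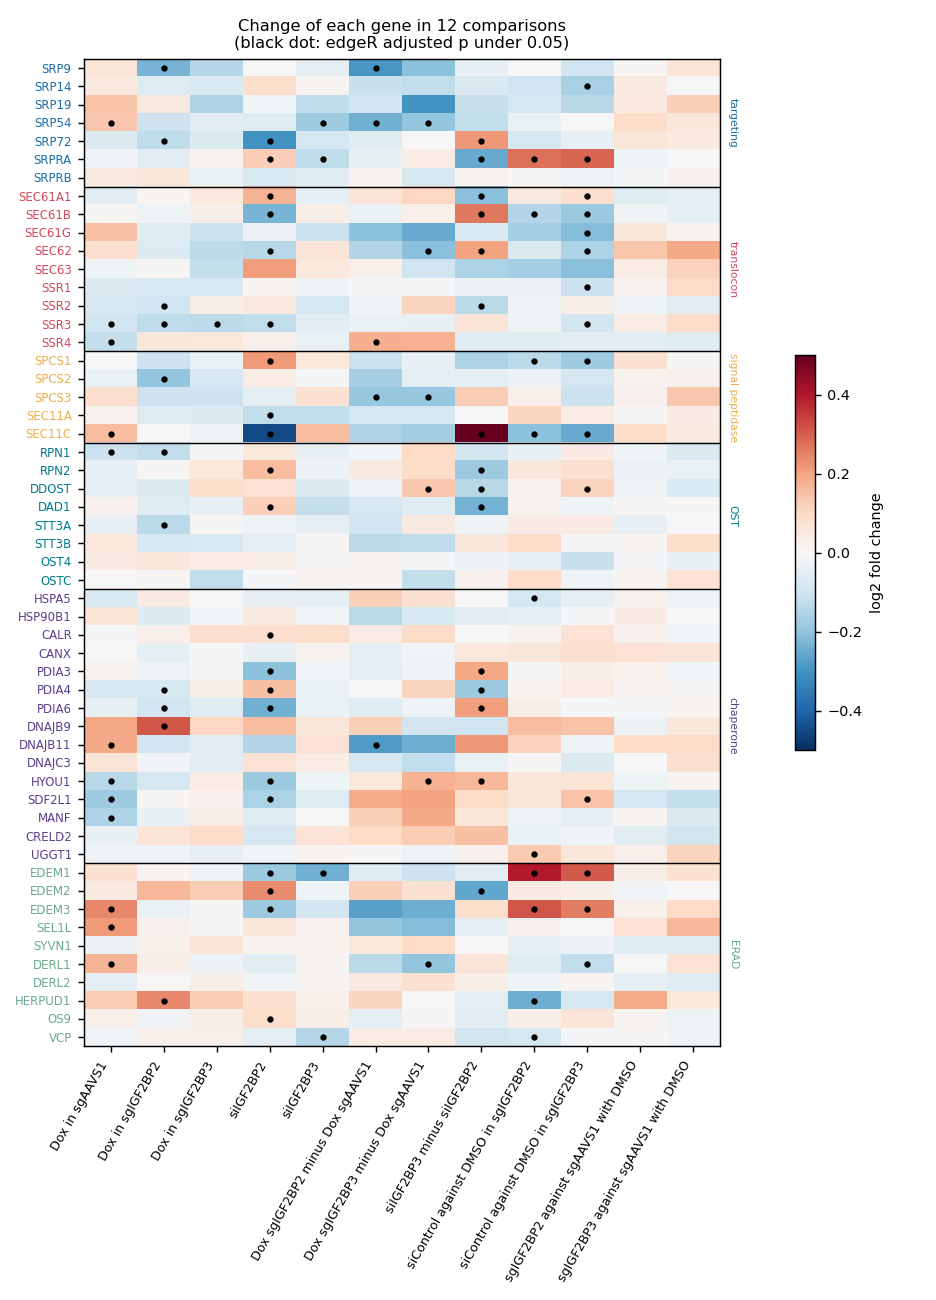
Log2 fold change of each of the 54 genes (rows, by step) in 12 comparisons (columns); red is higher, blue is lower, and a black dot marks an edgeR adjusted p under 0.05. The siIGF2BP2 column holds 21 dots, more than any other; the columns for the uninduced lines hold none.

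The siRNA against IGF2BP3 called 4 members, all lower (7.41% of the 54, against 2.34% of all genes tested, 0.936% higher and 1.4% lower). EDEM1 stood at 83.7, 78.7, 86.5 and 81.2 CPM with siControl and at 70.5, 69.1, 67.6 and 72.0 CPM with siIGF2BP3 (log2 change of −0.24 with SE 0.05, edgeR adjusted p = 0.000325). VCP, the ATPase that pulls substrates out of the ER membrane (ENSG00000165280, chr9:35056064-35073249, reverse strand), went from 588, 588, 595 and 581 CPM to 520, 539, 535 and 538 CPM (log2 change of −0.14 with SE 0.03, edgeR adjusted p = 0.00162). Neither gene's groups overlapped, and both calls held in all 13 other settings that kept the plain threshold. SRP54, the SRP subunit that binds signal peptides, went from 77.4, 75.5, 81.6 and 75.5 CPM to 74.7, 68.4, 64.1 and 66.3 CPM (log2 change of −0.18 with SE 0.05, edgeR adjusted p = 0.0189). SRPRA went from 219, 214, 224 and 222 CPM to 201, 209, 192 and 202 CPM (log2 change of −0.13 with SE 0.03, edgeR adjusted p = 0.0198). Libraries of these 2 genes did not overlap either, but each call was lost in 4 of 13 settings, with adjusted p up to 0.121 and 0.134. Only 2 members were called without the third siControl or the third siIGF2BP3 library, and 9 of the 54 had groups that did not overlap (16.7%, against 9.96% of all genes).

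The effects of the siRNAs were then compared, as siIGF2BP3 minus siIGF2BP2, each against its own siControl. Each siRNA was given only in the line with guides to the same target. Effects of the siRNA and of the line therefore cannot be told apart in these differences. The effects differed for 15 of the 54 members (27.8%, 7 higher and 8 lower with siIGF2BP3, against 18.7% of all genes tested, 9.88% higher and 8.82% lower). SEC11C had the greatest difference (0.61, SE 0.08, edgeR adjusted p = 1.29e-08). In sgIGF2BP3 cells it stood at 45.0, 40.1, 40.8 and 38.1 CPM with siControl and at 45.6, 47.8, 41.4 and 46.7 CPM with siIGF2BP3 (log2 change of 0.16 with SE 0.06, edgeR adjusted p = 0.144). SRPRA, called in both siRNA comparisons but in opposite directions, differed by −0.25 (SE 0.05, edgeR adjusted p = 4.85e-05). SEC61B (0.26), SRP72 (0.22), PDIA6 (0.21) and PDIA3 (0.19) had higher effects with siIGF2BP3. SEC61A1 (−0.21), DAD1 (−0.24), PDIA4 (−0.18) and RPN2 (−0.18) had lower ones. These 10 calls held in all 21 other settings with the plain threshold. EDEM2, HYOU1, SEC62, DDOST and SSR2 also differed, with calls lost in 5 to 13 of 21. EDEM1 fell with both siRNAs, and the difference between its effects was not called (−0.05, 95% interval −0.18 to 0.07, edgeR adjusted p = 0.623).

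**Figure D3:**
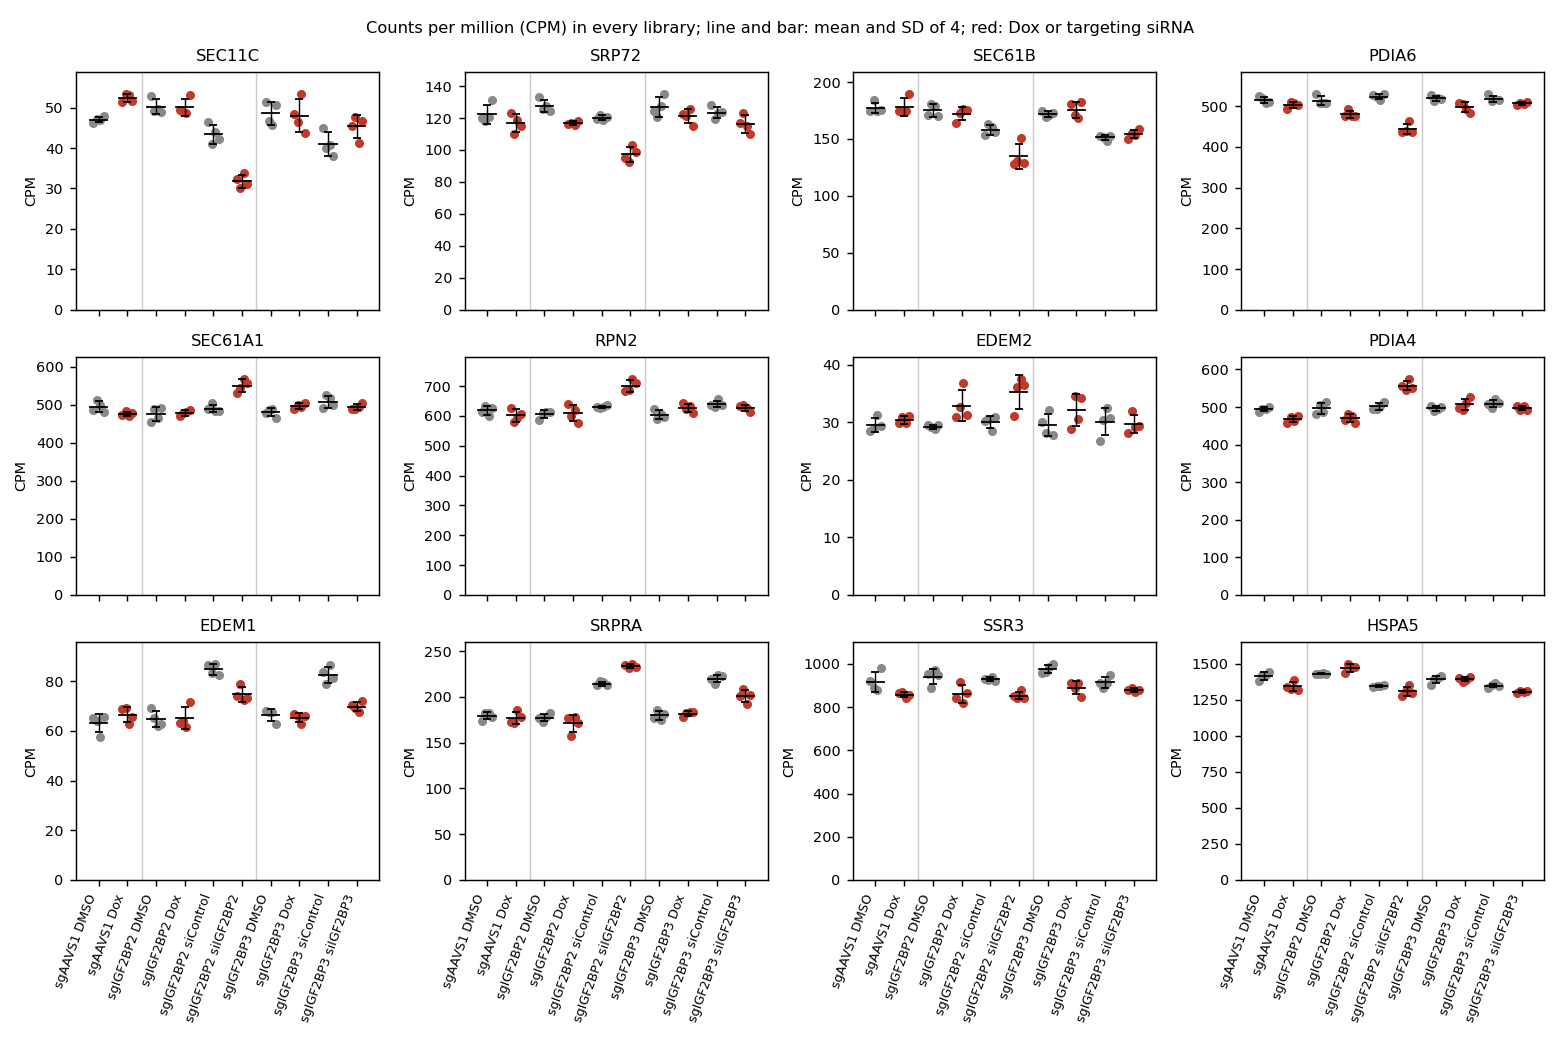
CPM of 12 genes in each of the 40 libraries, by group, with the mean and SD of 4 (axis from 0); grey groups received DMSO or siControl and red groups Dox or a targeting siRNA. SEC11C is lowest with siIGF2BP2, and EDEM1 and SRPRA stand higher in the siControl groups than with DMSO in both lines.

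Non-targeting siRNA also moved members relative to DMSO cells of the same line. These groups differ in transfection, siRNA and vehicle, and may differ in treatment time, which cannot be told apart. The labels give 48 h for the targeting siRNAs and 72 h for Dox, and no separate time for siControl or DMSO. In sgIGF2BP2 cells 10 members were called (4 higher and 6 lower, 18.5% against 18.4% of all genes, 10.2% higher and 8.16% lower). In sgIGF2BP3 cells 15 were called (6 higher and 9 lower, 27.8% against 19.4%, 10.9% higher and 8.54% lower). The groups did not overlap for 14 members in the first line and 20 in the second, or 25.9% and 37%, against 20.3% and 21.9% of all genes. The comparisons share no library. Both called 6 of the 54, each in the same direction, or 60% of the calls in the first line and 40% of those in the second (60.6% and 57.3% over all genes).

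EDEM1 rose in both lines. It stood at 69.0, 65.4, 61.9 and 62.7 CPM with DMSO in sgIGF2BP2 cells, against 86.5, 83.1, 87.0 and 82.5 with siControl (log2 change of 0.40 with SE 0.04, edgeR adjusted p = 1.38e-10). In sgIGF2BP3 cells it went from 68.0, 67.4, 67.6 and 62.9 CPM to 83.7, 78.7, 86.5 and 81.2 CPM (log2 change of 0.31 with SE 0.05, edgeR adjusted p = 2.33e-07). The groups were apart in both lines. The targeting siRNA values given above, 74.2, 78.9, 72.4 and 73.1 CPM for siIGF2BP2 and 70.5, 69.1, 67.6 and 72.0 CPM for siIGF2BP3, thus stood between DMSO and siControl by their means. Since they were compared with the same siControl libraries, the fall of EDEM1 with both siRNAs and its rise with siControl are not independent.

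SRPRA rose in sgIGF2BP2 cells from 177, 172, 178 and 182 CPM to 213, 217, 216 and 213 CPM (log2 change of 0.27 with SE 0.03, edgeR adjusted p = 2.17e-09) and in sgIGF2BP3 cells from 177, 186, 174 and 181 CPM to 219, 214, 224 and 222 CPM (log2 change of 0.29 with SE 0.03, edgeR adjusted p = 3.83e-10). The siIGF2BP3 values of SRPRA, 192 to 209 CPM, lay between DMSO and siControl, and its siIGF2BP2 values, 231 to 236 CPM, above both. Its siRNA and siControl effects share the siControl libraries and are not independent. The same holds for the genes that follow. EDEM3 rose in both lines (0.31 and 0.26, edgeR adjusted p = 0.000906 and 0.00799). SEC11C fell in both (−0.20 and −0.25, edgeR adjusted p = 0.00341 and 0.000429), as did SEC61B (−0.15 and −0.18, edgeR adjusted p = 0.00288 and 0.000202). The calls of these 5 genes held in all 13 other settings with the plain threshold in both lines. SPCS1 fell in both (−0.13 and −0.18), with calls lost in 5 of 13 settings in sgIGF2BP2 cells and, in sgIGF2BP3 cells, without the second siControl library (adjusted p = 0.0578).

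Other members passed in 1 line. In sgIGF2BP2 cells the ubiquitin-like scaffold protein HERPUD1 fell from 27.8 ± 0.765 to 23.6 ± 0.964 CPM (log2 change of −0.25 with SE 0.06, edgeR adjusted p = 0.00356), and HSPA5 fell from 1430 ± 3.25 to 1346 ± 7.05 CPM (log2 change of −0.09 with SE 0.03, edgeR adjusted p = 0.0190), a call lost in 3 of 13 settings. UGGT1, the glucosyltransferase that senses incompletely folded glycoproteins, rose (log2 change of 0.13 with SE 0.04, edgeR adjusted p = 0.0205; call lost in 4 of 13). VCP fell (log2 change of −0.08 with SE 0.03, edgeR adjusted p = 0.0393; call lost in 7 of 13). In sgIGF2BP3 cells the SRP subunit SRP14 fell from 275 ± 10.4 to 246 ± 9.36 CPM (log2 change of −0.16 with SE 0.04, edgeR adjusted p = 0.00310) and the OST subunit DDOST rose from 338 ± 8.08 to 365 ± 10.1 CPM (log2 change of 0.11 with SE 0.03, edgeR adjusted p = 0.00673). SEC61G fell (log2 change of −0.22 with SE 0.07, edgeR adjusted p = 0.0129; call lost in 2 of 13) and SDF2L1 rose (log2 change of 0.14 with SE 0.05, edgeR adjusted p = 0.0447; call lost in 7 of 13). SEC62 (−0.15), DERL1 (−0.12), SSR1 (−0.11) and SSR3 (−0.09) were called lower and SEC61A1 (0.08) higher. Whether these effects differ between the lines was not tested. Counts fell to 6 without the first siControl library in sgIGF2BP2 cells and to 7 without the second in sgIGF2BP3 cells. Across the 54 genes, Pearson's r between the lines' log2 fold changes was 0.855, against 0.54 over all 11428 genes, as a description over genes that share libraries. The 2 sets were not matched for expression level. The signs matched for 75.9% of the members, against 73.2% of all genes.

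**Figure D4:**
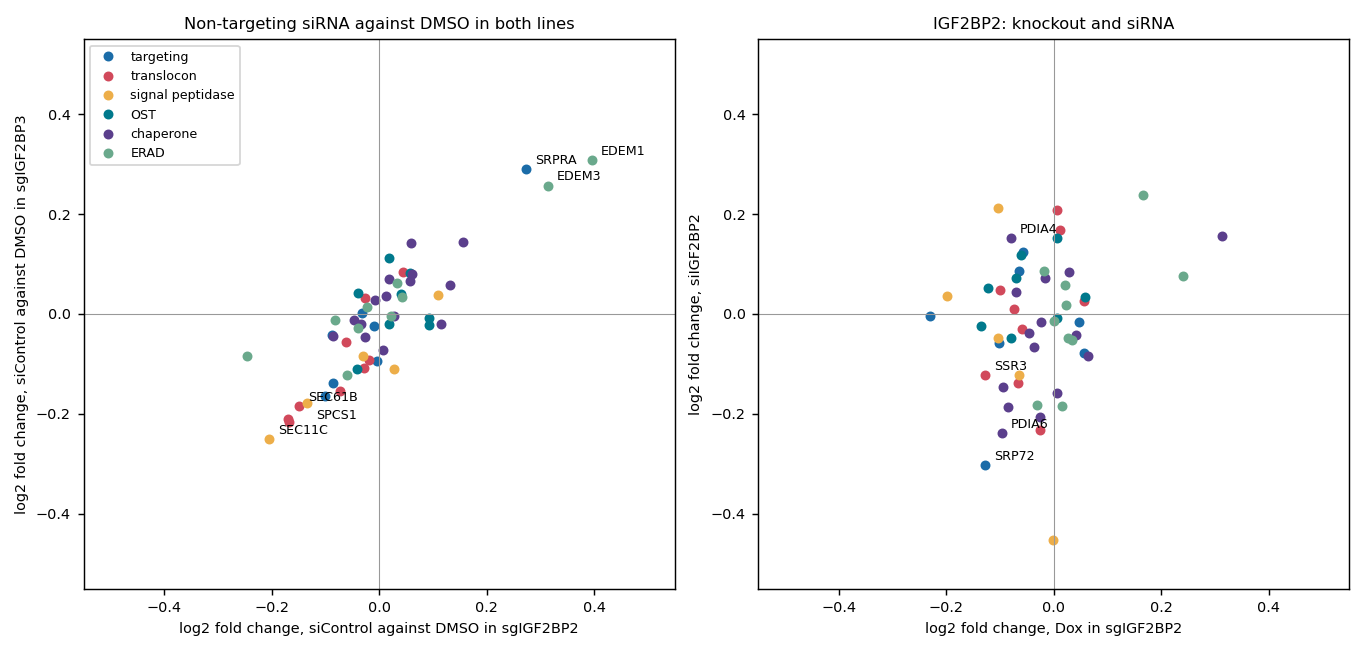
Log2 fold change of the 54 genes in pairs of comparisons that share no library: siControl against DMSO in the sgIGF2BP2 and sgIGF2BP3 lines (left), and Dox in sgIGF2BP2 cells against siIGF2BP2 (right). Named genes were called in both comparisons of a panel; on the left all 6 moved the same way, and on the right PDIA4 lies at −0.08 and 0.15.

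Dox was compared with DMSO in each of the 3 lines. In the line labelled sgAAVS1, in which SPOP fell as given above, 12 members were called (6 higher and 6 lower, 22.2% of the 54 against 15.9% of all genes, 7.25% higher and 8.68% lower). In sgIGF2BP2 cells 11 were called (2 higher and 9 lower, 20.4% against 20.4%, 10% higher and 10.4% lower), and in sgIGF2BP3 cells 1 was (lower, 1.85% against 2.64%, 1.64% higher and 1.01% lower). The groups did not overlap for 14, 9 and 7 members (25.9%, 16.7% and 13%), against 17.5%, 18% and 10.4% of all genes tested. Dox called 33 of the 54 in none of the 3 lines (61.1%, against 68.9% of all genes). The sgIGF2BP2 count was 11 without the second Dox library, which stood apart from its group.

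SSR3 was the only member called in all 3 lines (1.85%, against 0.726% of all genes). It stood at 920, 888, 878 and 981 CPM with DMSO and at 864, 869, 841 and 858 CPM with Dox in sgAAVS1 cells (log2 change of −0.10 with SE 0.03, edgeR adjusted p = 0.0367). In sgIGF2BP2 cells it went from 954, 890, 971 and 950 CPM to 843, 918, 820 and 865 CPM, with overlap through the second library of each group (log2 change of −0.13 with SE 0.03, edgeR adjusted p = 0.00296). In sgIGF2BP3 cells it went from 958, 962, 986 and 1001 CPM to 914, 889, 912 and 849 CPM without overlap (log2 change of −0.13 with SE 0.03, edgeR adjusted p = 0.0138). The call was lost in 6 of 13 settings in sgAAVS1 cells and, in sgIGF2BP3 cells, without the fourth DMSO or the fourth Dox library (adjusted p up to 0.125). RPN1, an OST subunit, was lower in sgAAVS1 cells (343, 351, 346 and 346 CPM with DMSO against 313, 321, 330 and 322 with Dox; log2 change of −0.11 with SE 0.03, edgeR adjusted p = 0.00867) and in sgIGF2BP2 cells (335, 350, 338 and 342 against 308, 322, 315 and 309; log2 change of −0.12 with SE 0.03, edgeR adjusted p = 0.00201). RPN1 did not differ detectably in sgIGF2BP3 cells (−0.01, 95% interval −0.07 to 0.05). Members called with Dox in 2 or more lines were 3.7% of the 54, against 7.06% of all genes.

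In the line labelled sgAAVS1, 3 ERAD genes rose. DERL1, a membrane protein of the retrotranslocation channel, went from 118, 125, 115 and 115 CPM to 136, 133, 130 and 132 CPM (log2 change of 0.17 with SE 0.04, edgeR adjusted p = 0.00165). SEL1L, the adaptor of the HRD1 ubiquitin ligase, went from 46.8, 43.3, 43.5 and 48.9 CPM to 54.4, 53.1, 51.9 and 52.4 CPM (log2 change of 0.21 with SE 0.06, edgeR adjusted p = 0.00493). Neither overlapped, while EDEM3 rose with overlap (log2 change of 0.24 with SE 0.08, edgeR adjusted p = 0.0203; call lost in 4 of 13). The J-protein DNAJB11 (0.19), SEC11C (0.15) and SRP54 (0.14) rose without overlap, each with a call lost in 6 or more of 13 settings. HYOU1 fell without overlap, from 107, 111, 108 and 106 CPM to 98.4, 98.6, 96.9 and 98.5 CPM (log2 change of −0.14 with SE 0.04, edgeR adjusted p = 0.0129), a call lost without the second DMSO library (edgeR adjusted p = 0.0503). SDF2L1 (−0.18; lost in 3 of 13), the secreted stress protein MANF (−0.16; lost without the third DMSO library, adjusted p = 0.0604) and the TRAP subunit SSR4 (−0.12; lost in 5 of 13) were also lower. Without the second DMSO or the first Dox library 5 members were called, and without the first or the third DMSO library 7.

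In sgIGF2BP2 cells the rises were DNAJB9 and HERPUD1. DNAJB9, a J-protein that partners HSPA5, stood at 17.6, 15.7, 14.9 and 14.8 CPM with DMSO and at 18.6, 19.4, 17.8 and 21.6 CPM with Dox (log2 change of 0.31 with SE 0.08, edgeR adjusted p = 0.00419). HERPUD1 went from 28.5, 26.8, 27.8 and 28.3 CPM to 33.1, 33.4, 29.8 and 34.6 CPM (log2 change of 0.24 with SE 0.06, edgeR adjusted p = 0.00311). Neither overlapped, and both calls held in all 13 other settings with the plain threshold. In the sgAAVS1 line the same genes had log2 fold changes of 0.19 (95% interval 0.03 to 0.36) and 0.13 (−0.00 to 0.26), neither called, and their Dox effects did not differ detectably between these lines (differences 0.12, 95% interval −0.12 to 0.35, and 0.11, −0.07 to 0.29). SRP72 fell from 133, 126, 127 and 124 CPM to 116, 117, 116 and 118 CPM (log2 change of −0.13 with SE 0.04, edgeR adjusted p = 0.0161; lost without the first DMSO library, adjusted p = 0.0667). PDIA6 fell from 531, 508, 508 and 506 CPM to 476, 492, 475 and 476 CPM (log2 change of −0.10 with SE 0.03, edgeR adjusted p = 0.00912; adjusted p = 0.0612 when only the groups compared were fitted). SRP9, which with SRP14 pauses translation, fell with overlap (log2 change of −0.23 with SE 0.06, edgeR adjusted p = 0.00422), and so did SPCS2 (−0.20; lost in 3 of 13), the catalytic OST subunit STT3A (−0.14; lost without the second Dox library, adjusted p = 0.0739) and SSR2 (−0.10; lost in 5 of 13). PDIA4 fell without overlap (−0.08, call lost in 7 of 13). Of the 11 members called with Dox in sgIGF2BP2 cells, only SRP9 had an effect that differed detectably from that in sgAAVS1 cells.

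The Dox effect in the line labelled sgAAVS1 was then subtracted from that in each knockout line. Since SPOP fell in the subtracted arm (SPOP differences 1.86 and 1.71), changes that go with SPOP loss there and changes that go with the knockouts cannot be told apart in these differences. For IGF2BP2 the effects differed for 5 members (9.26%, against 6.97% of all genes, 4.01% higher and 2.97% lower): SRP9 (−0.29), DNAJB11 (−0.28), SRP54 (−0.24), SPCS3 (−0.19) and SSR4 (0.18). For IGF2BP3 they differed for 6 (11.1%, against 7.78%, 4.53% higher and 3.25% lower): SEC62 (−0.21), DERL1 (−0.20), SRP54 (−0.19), SPCS3 (−0.19), DDOST (0.14) and HYOU1 (0.17). These genes are named to account for the counts; only SEC62, SPCS3 and DDOST had non-overlapping groups in the knockout line itself, all 3 in sgIGF2BP3 cells. DERL1, for instance, stood at 125, 117, 132 and 124 CPM with DMSO and at 125, 117, 123 and 122 CPM with Dox in sgIGF2BP3 cells, which overlapped (−0.03, 95% interval −0.11 to 0.05), while it rose in sgAAVS1 cells; the difference was −0.20 (SE 0.06, edgeR adjusted p = 0.0184). SRP54 and SPCS3 were called against this line for both knockouts, which share the 8 sgAAVS1 libraries.

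Both counts depended on single libraries. The first ran from 0 without the first sgIGF2BP2 DMSO library to 10 without the fourth sgAAVS1 DMSO library. The second ran from 1 to 13, with 13 without the fourth sgAAVS1 DMSO library and 1 without any of 6 libraries (the second DMSO, first Dox and second Dox of sgAAVS1, and the third DMSO, the fourth DMSO and the fourth Dox of sgIGF2BP3). SRP54 for IGF2BP2 (adjusted p = 0.0133) was lost in 1 of 21 settings, without the first sgIGF2BP2 DMSO library, and DERL1 for IGF2BP3 in 2 of 21, without the third DMSO or the second Dox library of sgIGF2BP3. Without Dox, no member was called between sgIGF2BP2 and sgAAVS1 cells or between sgIGF2BP3 and sgAAVS1 cells in edgeR (0.0175% of all genes in each). At an unadjusted p under 0.05 there were 3 and 10 members, and DESeq2 called 0 in both. The groups did not overlap for 2 members (HERPUD1 and SEC11C higher) and 3 members (UGGT1 and SSR1 higher, RPN1 lower), against 2.97% and 5.93% of all genes. The 95% intervals lay inside a 1.2-fold change for 53 and 50 of the 54.

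Knockout and siRNA of the same target share no library and could be set side by side. For IGF2BP2, 4 members were called in both, or 36.4% of the knockout calls and 19% of the siRNA calls (45.1% and 25% over all genes). SRP72 (−0.13 with Dox and −0.30 with siRNA), PDIA6 (−0.10 and −0.24) and SSR3 (−0.13 and −0.12) were lower in both. PDIA4 was lower with Dox (−0.08) and higher with siRNA (0.15). With Dox in sgAAVS1 cells PDIA4 also stood lower without overlap, from 494 ± 5.67 to 467 ± 8.34 CPM, but was not called. SSR3 was called lower in that line too. For none of these 4 genes did the Dox effect in sgIGF2BP2 cells differ detectably from that in sgAAVS1 cells. SEC11C, the greatest siRNA change, had a Dox change of −0.00 (95% interval −0.11 to 0.10), at 52.9, 49.2, 49.7 and 48.9 CPM with DMSO and 49.5, 48.9, 48.7 and 53.1 CPM with Dox, groups that overlapped. The difference between knockout and siRNA effects was not tested. For IGF2BP3, none of the 1 knockout call and 4 siRNA calls was shared, where 7.28% and 8.24% were over all genes. The signs matched for 59.3% of the members for IGF2BP2 and 48.1% for IGF2BP3, against 56.3% and 54.9% of all genes.

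HSPA5, the classical reporter of the unfolded protein response (ENSG00000044574, chr9:125234853-125241330, reverse strand), was called in none of the 5 treatment comparisons. It stood at 1376, 1419, 1421 and 1439 CPM with DMSO and at 1335, 1326, 1386 and 1320 CPM with Dox in sgAAVS1 cells, which overlapped (log2 change of −0.08 with SE 0.03, edgeR adjusted p = 0.0514). In sgIGF2BP2 cells the values were 1427, 1430, 1434 and 1427 CPM and 1433, 1499, 1477 and 1479 CPM (0.04, 95% interval −0.01 to 0.10). In sgIGF2BP3 cells they were 1354, 1393, 1402 and 1412 CPM and 1403, 1372, 1387 and 1407 CPM (0.00, −0.05 to 0.06). With siIGF2BP2 HSPA5 went from 1337, 1347, 1348 and 1354 CPM to 1276, 1307, 1351 and 1295 CPM, with overlap (−0.04, −0.10 to 0.01). With siIGF2BP3 it went from 1331, 1350, 1362 and 1347 CPM to 1294, 1313, 1303 and 1310 CPM, without overlap (−0.05, −0.10 to 0.01). All 5 intervals lie inside a 1.2-fold change.

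HSP90B1, which carries 2 ERSE matches, was called in none of the 5 either, with values of 0.07, −0.07 and −0.02 for Dox in the sgAAVS1, sgIGF2BP2 and sgIGF2BP3 lines and of 0.04 and −0.01 for siIGF2BP2 and siIGF2BP3. DNAJB9 outside sgIGF2BP2 cells had changes of 0.10 with Dox in sgIGF2BP3 cells, 0.16 with siIGF2BP2 and 0.06 with siIGF2BP3, none called. HERPUD1 had 0.12, 0.08 and 0.03, none called. The channel subunit SEC61A1, called with siIGF2BP2, had −0.05, 0.01 and 0.05 with Dox and −0.04 with siIGF2BP3, and SEC61B had 0.01, −0.03, 0.03 and 0.03, none of these called. Among the 9 genes with ERSE or ERSE-II printed above, siIGF2BP2 called 1 higher (CALR) and 3 lower (PDIA6, HYOU1 and SDF2L1), or 44.4%, with a median log2 fold change of −0.04. In the 39 with a promoter entry and neither element it called 6 higher and 8 lower (35.9%), with a median of −0.01, against 36.8% of all genes. Dox called 2 of the 9 in sgAAVS1 cells (both lower, 22.2%, against 20.5% of the 39 and 15.9% of all genes), 1 higher and 1 lower in sgIGF2BP2 cells (22.2%, against 20.5% and 20.4%) and none in sgIGF2BP3 cells (against 2.56% and 2.64%). With siIGF2BP3 none was called (against 7.69% and 2.34%). CALR nonetheless stood higher with siIGF2BP3 (0.09), and HSPA5 and PDIA6 lower, each without overlap. Groups did not overlap for 9.96% of all genes in that comparison. Medians of the 9 genes were −0.04, 0.01 and 0.02 with Dox in sgAAVS1, sgIGF2BP2 and sgIGF2BP3 cells and −0.01 with siIGF2BP3. For Dox in sgIGF2BP3 cells and siIGF2BP3, where none of the 9 was called in edgeR, 9 and 11 of all 54 had an unadjusted p under 0.05.

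Over the 5 treatment comparisons, 19 members were called in none (35.2%, against 45.5% of all genes), 23 in 1 (42.6%, against 36%), 11 in 2 (20.4%, against 14.1%), none in 3 (against 3.71%) and SSR3 in 4 (1.85%, against 0.56%). The 95% interval lay inside a 1.2-fold change for 47, 49 and 50 of the 54 with Dox in sgAAVS1, sgIGF2BP2 and sgIGF2BP3 cells, for 41 with siIGF2BP2 and for 50 with siIGF2BP3. In such bulk libraries, less RNA per cell and fewer cells that express a gene cannot be told apart.

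A wider set of 135 genes of the same steps, 134 of them tested, served for comparison. With siIGF2BP2, 53 were called (25 higher and 28 lower, 39.6%, against 36.8% of all genes), and some moved more than any member. ERLIN2, a membrane protein of an ERAD complex, fell from 58.1 ± 1.35 to 32.2 ± 1.70 CPM (log2 change of −0.85 with SE 0.05, edgeR adjusted p = 5.05e-24). ERO1A, the oxidase that recharges protein disulfide isomerase, fell from 166 ± 3.25 to 100 ± 4.30 CPM (log2 change of −0.73 with SE 0.04, edgeR adjusted p = 5.5e-25). In the glycan steps the OST subunit MAGT1 fell (log2 change of −0.46 with SE 0.05, edgeR adjusted p = 2.57e-13), the lectin MLEC fell (log2 change of −0.37 with SE 0.03, edgeR adjusted p = 2.69e-15), and the dolichol-phosphate-mannose synthase subunit DPM3 (0.53) and the mannosidase MAN1B1 (0.27) rose. TRAM1, a translocon partner, fell (log2 change of −0.29 with SE 0.05, edgeR adjusted p = 1.34e-06). The folding factors ERP29 (0.36) and FKBP9 (0.39) rose.

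ERO1A and ERLIN2 were also lower with siIGF2BP3, from 164 ± 5.38 to 149 ± 4.08 CPM (log2 change of −0.14 with SE 0.04, edgeR adjusted p = 0.0239) and from 56.4 ± 1.45 to 48.0 ± 1.02 CPM (log2 change of −0.23 with SE 0.05, edgeR adjusted p = 0.000776), among 5 lower and 0 higher calls (3.73%, against 2.34%). In sgIGF2BP3 cells ERO1A stood at 140 to 147 CPM with DMSO, 159 to 171 with siControl and 144 to 152 with siIGF2BP3. In sgIGF2BP2 cells it stood at 126 to 134 CPM with DMSO, 162 to 170 with siControl and 96.3 to 106 with siIGF2BP2. Its siControl libraries thus lay above DMSO in both lines. ERO1A was lower with Dox in sgIGF2BP2 cells (−0.14, edgeR adjusted p = 0.00678) and in sgIGF2BP3 cells (−0.14, edgeR adjusted p = 0.0323). MAN1B1 was higher with Dox in both (0.17 and 0.16) and lower in sgAAVS1 cells (−0.19). With Dox the calls in the wider set were 24 in sgAAVS1 cells (10 higher and 14 lower, 17.9%, against 15.9% of all genes), 14 in sgIGF2BP2 cells (5 and 9, 10.4%, against 20.4%) and 5 in sgIGF2BP3 cells (2 and 3, 3.73%, against 2.64%). In sgAAVS1 cells P4HB (log2 change of −0.31 with SE 0.03, edgeR adjusted p = 2.48e-12), the founding protein disulfide isomerase, SRP68 (log2 change of −0.26 with SE 0.03, edgeR adjusted p = 4.84e-08), the partner of SRP72, and NPLOC4 (log2 change of −0.23 with SE 0.03, edgeR adjusted p = 7.56e-07), a cofactor of VCP, were the 3 greatest falls among the called genes, and all 3 lie on 17q beyond SPOP. CCDC47 and the sensor ERN1 lie on 17q beyond SPOP too. With Dox in sgAAVS1 cells CCDC47 was lower without overlap (105 to 113 CPM with DMSO, 96.4 to 99.8 CPM with Dox). ERN1 overlapped (17.2 to 19.8 CPM and 17.9 to 20.0 CPM). KDELR2, a retrieval receptor for ER proteins that lies on 7p beyond IGF2BP3, was lower with Dox in sgIGF2BP3 cells (log2 change of −0.21 with SE 0.04, edgeR adjusted p = 0.000427). GET4, which also lies on 7p beyond IGF2BP3, was not called in that comparison.

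Of 19 regulators of the unfolded protein response, 18 were tested. With siIGF2BP2, 11 were called (5 higher and 6 lower, 61.1%, against 36.8% of all genes): among them ATF6B, a relative of the sensor ATF6, rose (log2 change of 0.31 with SE 0.05, edgeR adjusted p = 3.98e-06), the phosphatase subunit PPP1R15A rose (log2 change of 0.23 with SE 0.03, edgeR adjusted p = 4.8e-08), and the protease MBTPS2 (log2 change of −0.49 with SE 0.10, edgeR adjusted p = 0.000134) and the pseudokinase TRIB3 (log2 change of −0.45 with SE 0.05, edgeR adjusted p = 4.89e-11) fell. With Dox in sgIGF2BP2 cells 6 were called (4 higher and 2 lower, 33.3%, against 20.4%), including the sensor ERN1 (log2 change of 0.33 with SE 0.08, edgeR adjusted p = 0.000674) and PPP1R15A (log2 change of 0.25 with SE 0.03, edgeR adjusted p = 5.01e-08). PPP1R15A was also higher with Dox in sgAAVS1 cells (0.13), where 3 were called (2 higher and 1 lower, 16.7%, against 15.9%). In sgIGF2BP3 cells no regulator passed in edgeR with Dox (against 2.64%) or with siIGF2BP3 (against 2.34%); 1 and 2 had an unadjusted p under 0.05.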

How the data were processed

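Total poly(A) RNA was sequenced after alkylation of 4-thiouridine-labelled RNA, in 40 libraries of 10 groups, per the labels' protocols. The deposited table holds whole-number counts per Ensembl gene, made by the authors and not normalised. The submitters' processing notes name STAR 2.7.5c, bcl2fastq 2.20.0.422 and hg38; the counting tool and strand setting are not given in the sources used here. Library totals were 10018181 to 24822807 counts. The common biological coefficient of variation, from edgeR's common dispersion, was 3.79%. Replicates differed by more than counting noise, so none was merged.

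From the counts, 1 edgeR 4.0.16 quasi-likelihood model (R 4.3.3; filterByExpr, TMM factors 0.978 to 1.03) was fitted over all 40 libraries and 11428 genes. P-values were adjusted by Benjamini-Hochberg over all genes of each of 12 comparisons, with a threshold of 0.05. Intervals are the log2 fold change ± 1.96 SE. CPM values are counts scaled by TMM-adjusted library totals, and lengths are exon unions of GENCODE genes. The members and lists were chosen with earlier results of these data known. Up to 5 rises and 5 falls per comparison are named, with the greatest change among called members whose groups do not overlap. Many are given with values by library, others with means or the change alone. Changes of HSPA5, HSP90B1, DNAJB9, HERPUD1, SEC61A1 and SEC61B are given in all 5 treatment comparisons, with values by library in some. Wider lists give up to 2 rises and 2 falls each by the same rule. Other genes are named to account for counts, chosen after their values were seen. The alternatives were DESeq2 1.42.0, its size factors in edgeR, no filter, the replicate number as a block, only the groups compared, a test against a 1.2-fold change, and each library left out. A simulation with known changes was used to test the model. Same-numbered libraries of different groups deviated together weakly at most (36 pairs, r from −0.0896 to 0.0966), so the number was not used as a pairing. In 2 comparisons each library deviated most like its own number. These were siControl against DMSO in sgIGF2BP2 cells (r from 0.0437 to 0.0924) and uninduced sgIGF2BP3 against sgAAVS1 cells (0.0219 to 0.0966).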

Additional observations from a re-analysis of the deposited data

Results flagged for a closer look

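In 12 of 146 combinations of a gene and a group of 4, 1 library stood far from the other 3, which chance gives in about 1 in 20 groups. SEC61B was high in the second sgAAVS1 DMSO library (183.9 CPM), the fourth sgAAVS1 Dox library (189.9 CPM) and the third siIGF2BP2 library (150.7 CPM). The third siIGF2BP2 library was also high for HSP90B1 (1039 CPM) and PDIA6 (463 CPM). PDIA6 was high in the first sgIGF2BP2 DMSO library (530.8 CPM) and the second sgIGF2BP2 Dox library (492.1 CPM). DNAJB9 was low in the fourth sgIGF2BP3 DMSO library (13.78 CPM), as was EDEM1 (62.89 CPM), and DNAJB9 was high in the second sgIGF2BP3 Dox library (19.37 CPM). HYOU1 was low in the third sgAAVS1 Dox library (96.87 CPM) and HERPUD1 in the second (24.39 CPM).

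Effects differed between groups for 26 gene and comparison pairs, by edgeR's test of the difference itself. Dox in sgIGF2BP2 cells minus Dox in sgAAVS1 cells gave log2 differences of −0.28 for DNAJB11, −0.19 for SPCS3, −0.24 for SRP54, −0.29 for SRP9 and 0.18 for SSR4. Dox in sgIGF2BP3 cells minus Dox in sgAAVS1 cells gave 0.17 for HYOU1, −0.20 for DERL1, 0.14 for DDOST, −0.19 for SPCS3, −0.19 for SRP54 and −0.21 for SEC62. With siIGF2BP3 minus siIGF2BP2 the folding enzymes differed by 0.17 (HYOU1), 0.19 (PDIA3), −0.18 (PDIA4) and 0.21 (PDIA6), and the ERAD gene EDEM2 by −0.26. The OST genes differed by −0.24 (DAD1), −0.14 (DDOST) and −0.18 (RPN2). SEC11C differed by 0.61, SRP72 by 0.22 and SRPRA by −0.25. The translocon genes differed by −0.21 (SEC61A1), 0.26 (SEC61B), 0.20 (SEC62) and −0.14 (SSR2).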

How the results depend on the processing

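The 99 called member values with alternatives (SEC61A1 with siControl in sgIGF2BP3 cells had none) kept their direction in each alternative run, and 47 kept their call in each one except the test against a 1.2-fold change, which 2 passed. Of 58 called values of other named genes, all kept their direction, 45 their call and 10 passed that test. The 1.2-fold test left 0 members in every comparison with calls except siIGF2BP2 (1) and siIGF2BP3 minus siIGF2BP2 (1), both SEC11C. For Dox in sgIGF2BP3 cells, 2 members were called, against 1, with DESeq2, with no filter and with only the groups compared. With only the groups compared, the Dox differences from sgAAVS1 cells gave 3 members for IGF2BP2 and 10 for IGF2BP3, and with no filter 1 member was called between uninduced sgIGF2BP3 and sgAAVS1 cells. With the replicate number as a block, counts were 14, 12 and 1 for Dox in sgAAVS1, sgIGF2BP2 and sgIGF2BP3 cells. They were 21 and 4 for siIGF2BP2 and siIGF2BP3, and 6, 8 and 15 for the differences. The siControl comparisons gave 11 and 16, and both uninduced lines 0. The libraries bore out this pairing weakly at most, as 13 of 36 deviated most like their own number. Leaving out 1 library at a time gave 5 to 13 members for Dox in sgAAVS1 cells, 9 to 11 in sgIGF2BP2 cells and 0 to 1 in sgIGF2BP3 cells. The ranges were 15 to 21 for siIGF2BP2 and 2 to 4 for siIGF2BP3, and 0 to 10, 1 to 13 and 11 to 16 for the IGF2BP2, IGF2BP3 and siRNA differences. For siControl they were 6 to 10 and 7 to 15, and for the uninduced lines 0 to 0 and 0 to 2, with 2 without the fourth sgAAVS1 DMSO library.

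Of 26 uncalled member values, 7 changed sign, all near 0; the cause was not tested. Over the left-out libraries, SEC61B with Dox in sgAAVS1 cells ran from −0.0287 to 0.0216 and SEC61A1 with Dox in sgIGF2BP2 cells from −0.00912 to 0.0275. With Dox in sgIGF2BP3 cells, HSPA5 ran from −0.0106 to 0.00894 and HSP90B1 from −0.0381 to 0.00575. With siIGF2BP3, HSP90B1 ran from −0.0275 to 0.00751, DNAJB9 from −0.00124 to 0.1065 and HERPUD1 from −0.0180 to 0.0640. For HSPA5, Dox in sgIGF2BP3 cells gave −0.000517 with DESeq2's size factors in edgeR, −0.000419 with DESeq2 and −0.00302 with no filter. The fewest counts of any member in a library were 142, for SEC63.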
